A study of Mus musculus with 6 samples.

Results

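The genes described here are 31 genes of microglia and of the complement pathway, listed by symbol. Each was represented by 1 probe set, the one with the highest mean over all 6 arrays among those annotated to that gene alone. All 31 were found among the 18193 genes of the array. The data are hippocampal RNA levels, as log2 values, of 3 L26 mice and 3 wild type mice. L26 mice were adult males homozygous for daDREAM, a dominant active form of the calcium-sensitive repressor DREAM, and the wild type mice were adult male littermates that lacked the transgene. All animals had the mixed background C57B6xCBA, none was stimulated, and each array holds 1 independent biological replicate. L26 is 1 transgenic line, so an effect of daDREAM and an effect of this line alone cannot be told apart. The promoter that drives daDREAM, and whether microglia carry its product, were not stated in the labels.

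Microglia are the resident macrophages of the brain. At rest they survey the tissue with purinergic, chemokine and growth factor receptors, and this resting programme is called homeostatic. They are also the main source of C1q in the brain, the protein that starts the classical complement cascade and tags synapses for removal. Fc receptor chains and adaptors with an immunoreceptor tyrosine-based activation motif (ITAM) pass on signals from bound antibodies and lipids, and lysosomal proteins break down what the cell takes up.

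In L26 hippocampus 7 of the 31 genes rose and 1 fell, while 23 did not pass the threshold. The genes that rose were Fcrls, C1qc, Lyz2, Fcer1g, Selplg, C1qb and Csf1r, by 1.16-fold to 1.46-fold, and the gene that fell was P2ry12, to 0.81 of the wild type level. Calls rest on an adjusted p under 0.05 in limma, adjusted over all 18193 genes, and differences are given as L26 minus wild type on the log2 scale. The 8 calls are 25.8% of the members, beside 5.19% of all genes. Higher calls made up 22.6% of the members, against 2.63% of all genes, and lower calls 3.23%, against 2.57%. The members were chosen with earlier results of these data known, so these shares only describe them. All genes also include dim ones, while no member averaged below the lower quartile of all values (5.95). The median difference of the members was 0.03, and that of all genes was 0.01. With each array centred on its median, 382 genes of the array were higher and 690 lower, against 478 and 467 without centring, and 6 members were higher and 2 lower. All 3 L26 arrays lay above all 3 wild type arrays for 9 members (29% of them, 13% of all genes), and below them for 3 (9.68% of members, 11% of all genes). These are whole-tissue samples, in which more cells of a type and more RNA per cell cannot be told apart.

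**Figure D1:**
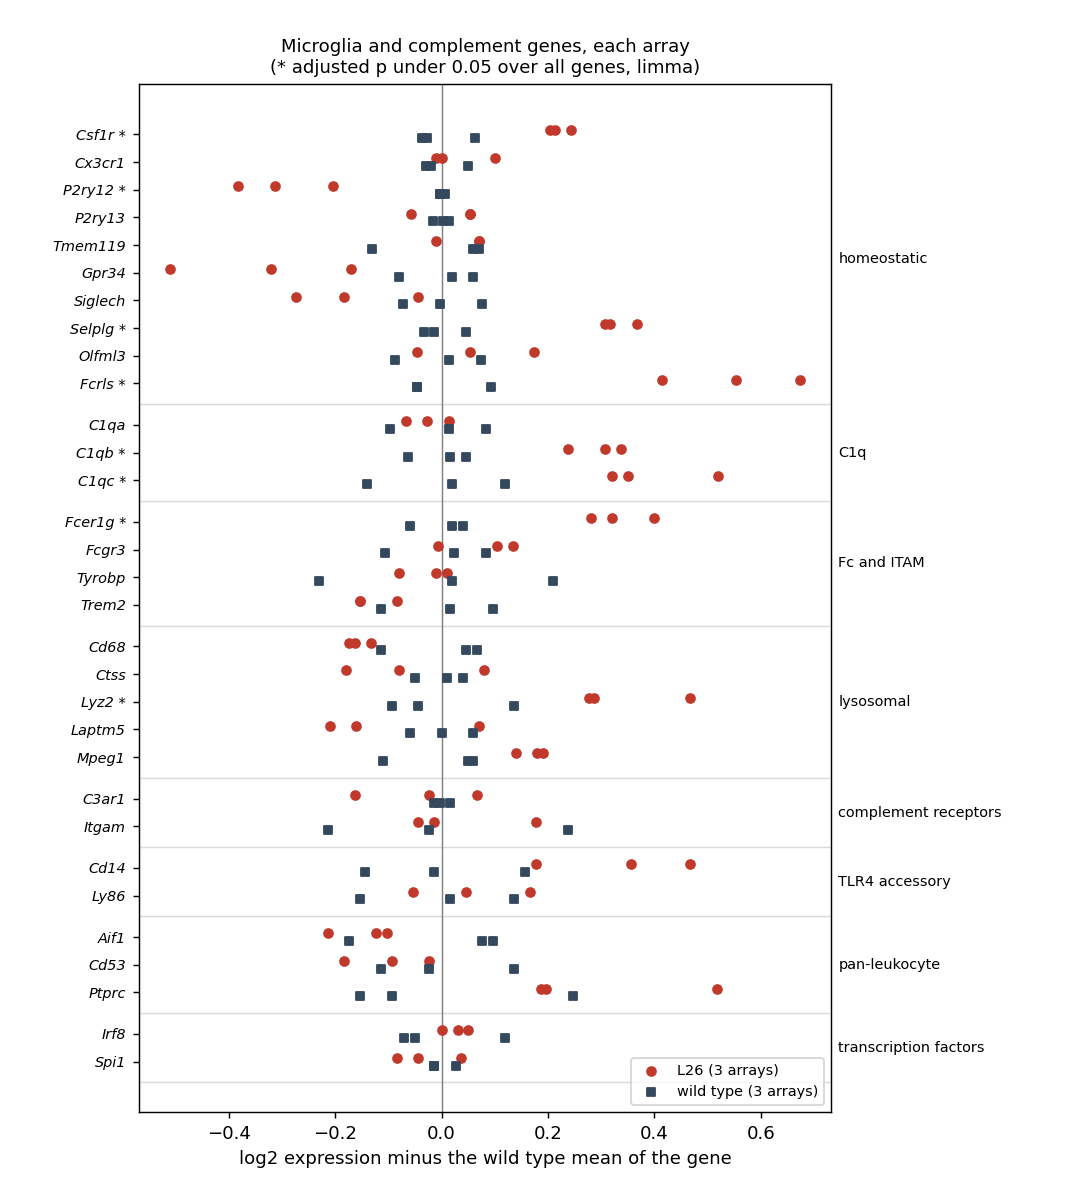
Log2 expression of the 31 genes on each array, as the difference from the wild type mean of the same gene. Circles are the 3 L26 arrays and squares the 3 wild type arrays, genes are grouped by role, and an asterisk marks an adjusted p under 0.05 (limma, all genes). Fcrls, with L26 arrays at 9.11 to 9.37, lies farthest to the right, while P2ry12 and Gpr34 lie to the left.

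The arrays were close in level, with a small offset between the groups. Array medians were 7.3, 7.31 and 7.32 in L26, against 7.27, 7.28 and 7.29 in wild type. Every L26 median thus lay above every wild type median. Correlations of log2 values over probe sets were 0.997 to 0.998 within a group and 0.994 to 0.996 between groups. Among the wild type arrays, replicate 1 was the lowest for 20 of the 31 members. Without it 3 members passed, namely Selplg, Fcrls and Fcer1g, all higher in L26. The number that passed was 4 without wild type replicate 2 and 5 without wild type replicate 3. It was 5, 4 and 2 without L26 replicates 1, 2 and 3. Leaving out an array also lowered the count over all genes, to between 405 and 701, against 945 with all arrays. The fall from 8 members can thus not be laid to single arrays. The dentate gyrus marker Prox1 had values of 8 to 8.23 in L26 and 7.83 to 8 in wild type, and the CA1 marker Wfs1 averaged 10.96 and 11.06. Both lay above the lower quartile of all values (5.95). Most values do so by definition, so this cannot tell hippocampus from neighbouring tissue. No member averaged below that quartile, and 4 averaged below the overall median of 7.29. The Kcnip3 probe set, for the gene of DREAM, had 10.15, 10.09 and 10.20 in L26, against 10.38, 10.36 and 10.21 in wild type (difference -0.17, adjusted p = 0.169). Whether it covers the transgene is not known, so it checks no label.

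Among the receptors that define homeostatic microglia, the ADP receptor gene P2ry12, which guides the processes of microglia to injury, was the only gene to pass in the downward direction. It had 9.84, 9.73 and 9.66 in L26 and 10.04, 10.05 and 10.04 in wild type. The 3 wild type arrays were within 0.01 of each other, and every L26 array lay below them. The difference was -0.30 (SE 0.06, adjusted p = 0.023, limma). This call was lost when any array other than L26 replicate 1 was left out (adjusted p 0.0552 to 0.0873), with differences from -0.35 to -0.26 over the 6 such fits. The only P2ry12 probe set was among those counted as open to related transcripts. P2ry13, the gene of a related ADP receptor and its next neighbour in the RefSeq gene order, had 8.27, 8.27 and 8.16 in L26 against 8.2, 8.23 and 8.22 in wild type. Its groups overlapped, and the 95% interval of its difference ran from -0.10 to 0.14.

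Gpr34, which encodes a receptor for lysophosphatidylserine, had 7.99, 7.84 and 7.65 in L26, against 8.08, 8.18 and 8.22 in wild type. All L26 arrays lay below the wild type arrays, but the difference of -0.33 (SE 0.09) did not pass (adjusted p = 0.0604). It passed without L26 replicate 1 (adjusted p = 0.0345) and, at 0.0414 to 0.0467, under 4 other alternatives that kept the threshold. Siglech, a sialic acid-binding lectin gene of microglia, had 8.14, 8 and 7.91 in L26 and 8.18, 8.26 and 8.11 in wild type (difference -0.17, adjusted p = 0.23). For P2ry12, Gpr34 and Siglech alike, L26 replicate 1 had the highest and L26 replicate 3 the lowest value of the 3 L26 arrays. The chemokine receptor gene Cx3cr1, whose ligand fractalkine is made by neurons, ranged from 10.03 to 10.14 in L26 and from 10.01 to 10.09 in wild type. Its difference was 0.03, with a 95% interval from -0.09 to 0.15.

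Csf1r encodes the receptor for the survival signals CSF1 and interleukin-34, on which microglia depend. It had 12.17, 12.14 and 12.13 in L26, against 11.90, 11.99 and 11.89 in wild type, and the groups did not overlap. The difference of 0.22 (SE 0.05, 1.16-fold) passed narrowly (adjusted p = 0.047), and missed with arrays centred on their medians (0.19, adjusted p = 0.0766). The call was lost when any 1 of the 6 arrays was left out (adjusted p 0.0625 to 0.13), with differences of 0.20 to 0.25. Adjusted over all probe sets rather than genes, the same probe set missed (adjusted p = 0.0653), while another Csf1r probe set, open to related transcripts, passed with a difference of 0.24 (adjusted p = 0.0434). The remaining Csf1r probe set had 0.15 (adjusted p = 0.218).

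The largest increase was that of Fcrls, a scavenger receptor gene related to Fc receptors and typical of mouse microglia. It had 9.25, 9.37 and 9.11 in L26, against 8.65, 8.65 and 8.79 in wild type. Every L26 array lay well above the wild type arrays. The difference was 0.55 (SE 0.08, 1.46-fold, adjusted p = 0.00515), and it kept between 0.48 and 0.61 and its call when any array was left out.

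Selplg, the gene of P-selectin glycoprotein ligand, had 9.48, 9.42 and 9.43 in L26 and 9.08, 9.16 and 9.10 in wild type. The arrays of each group lay close together and the groups did not overlap (difference 0.33, SE 0.05, adjusted p = 0.00863). This call too held without any 1 array. Tmem119, a membrane protein gene used to mark microglia and the next measured gene to Selplg, had 8.65, 8.57 and 8.65 in L26, against 8.45, 8.65 and 8.64 in wild type. Its groups overlapped (difference 0.04, 95% interval -0.11 to 0.19). Olfml3, a gene of a secreted olfactomedin-like protein, had a difference of 0.06 (adjusted p = 0.7). Of the 10 homeostatic genes, 3 rose, 1 fell and 6 did not pass, with a median difference of 0.04.

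The C1q molecule is assembled from A, B and C chains, whose genes C1qa, C1qc and C1qb lie next to each other. C1qb had 10.45, 10.35 and 10.42 in L26, against 10.05, 10.16 and 10.13 in wild type. Its groups did not overlap, and the difference was 0.29 (SE 0.06, 1.23-fold, adjusted p = 0.0197). C1qc had 9.46, 9.43 and 9.63 in L26, against 8.97, 9.13 and 9.23 in wild type, again without overlap (difference 0.40, SE 0.08, 1.32-fold, adjusted p = 0.0266). C1qa had 10.24, 10.20 and 10.28 in L26, against 10.17, 10.28 and 10.35 in wild type. The C1qa groups overlapped, and the difference of -0.03 had a 95% interval from -0.16 to 0.11, which lies below the differences of C1qb and C1qc.

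Within each array, C1qb relative to C1qa was 0.32 higher in L26, and C1qc relative to C1qa was 0.42 higher, with no overlap between the groups in either. Each had an exact permutation p of 0.1 (two-sided, 3 arrays against 3), the smallest that this design allows. 6 pairs of genes were compared in this way, all chosen after their values were seen, and the adjusted value was 0.1 for each. Relative to P2ry13, P2ry12 was 0.32 lower in L26 (difference -0.32), and relative to Tmem119, Selplg was 0.29 higher, both without overlap. The other C1qb probe sets had differences of 0.25 and 0.29, both with all L26 arrays above the wild type arrays, though neither passed over all probe sets (adjusted p = 0.126 and 0.148). The C1qb call was lost without L26 replicate 1, L26 replicate 3, wild type replicate 1 or wild type replicate 3 (adjusted p 0.0513 to 0.0778). The C1qc call was lost without any array other than wild type replicate 3 (adjusted p 0.0589 to 0.0986). The differences without 1 array were 0.26 to 0.32 for C1qb and 0.33 to 0.46 for C1qc.

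**Figure D2:**
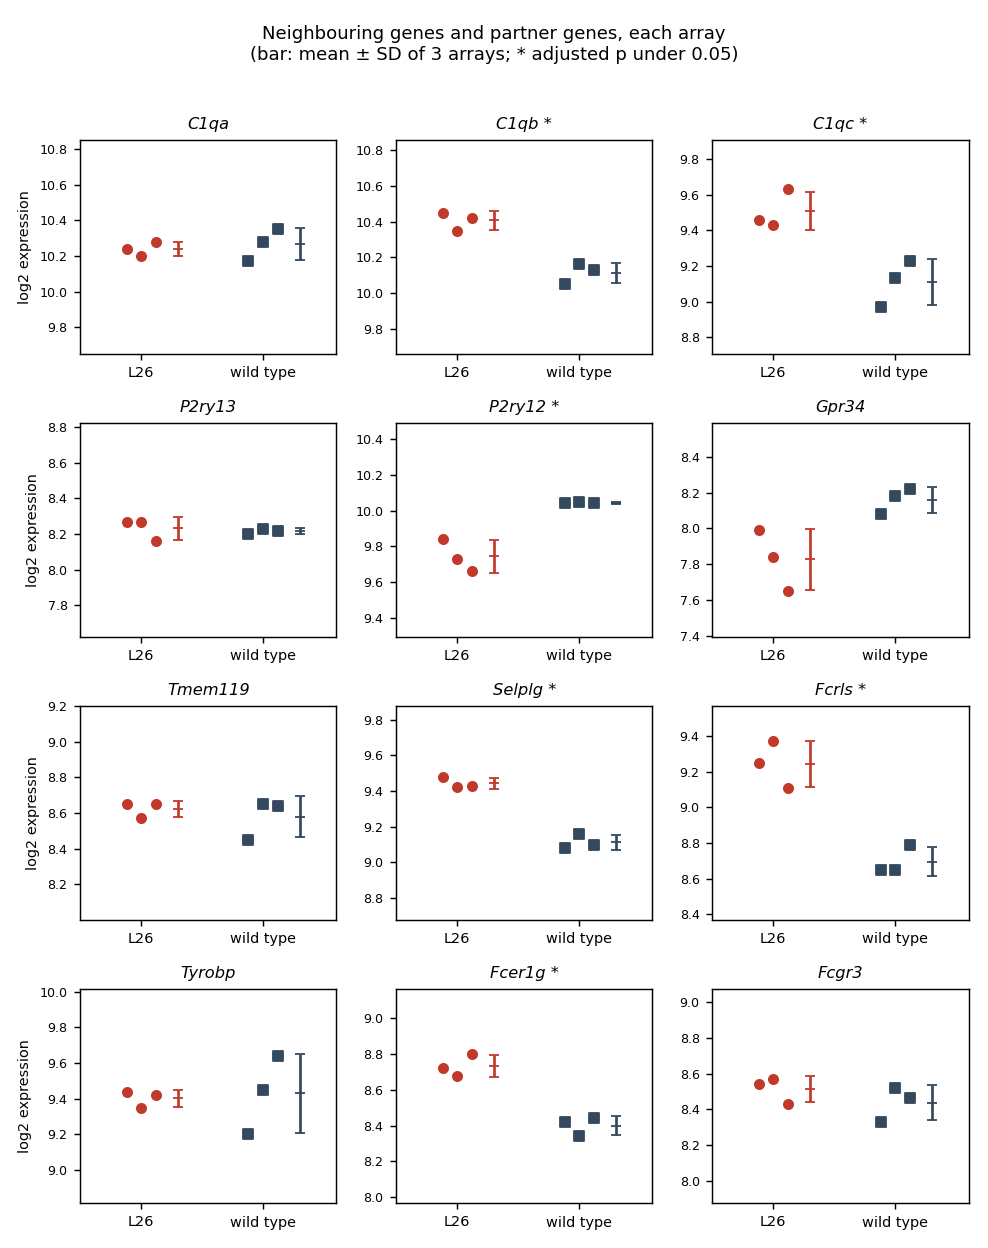
Log2 expression on each array of genes that lie next to each other or whose proteins work together, with the L26 arrays as circles on the left of each panel and the wild type arrays as squares on the right. Bars are the mean and SD of 3 arrays, each panel spans 1.2 log2 units, and an asterisk marks an adjusted p under 0.05. C1qb and C1qc separate the groups while C1qa does not, and P2ry12 does while P2ry13 does not.

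The sequences before the starts of 5 genes are shown: C1qb and C1qc as neighbours that both rose, P2ry12 and P2ry13 as neighbours of which P2ry12 alone passed, and Fcrls for its large increase. They are the 250 bases upstream of each RefSeq start, on build GRCm38.p6 and on the strand of the gene, which is the minus strand for all of them. They cover chr4:136886201-136886450 for C1qb, chr4:136892915-136893164 for C1qc, chr3:59262986-59263235 for P2ry12, chr3:59210883-59211132 for P2ry13 and chr3:87263525-87263774 for Fcrls. Capitals mark GAGGAAG, a purine-rich word bound by ETS factors such as PU.1, and the words GTCAAAG, or GTCAAGG, or GTCAGAG, or GTCAGGG, which share the core GTCA of the downstream regulatory element that DREAM binds. Both strands were searched, and no marked words overlapped.
C1qb: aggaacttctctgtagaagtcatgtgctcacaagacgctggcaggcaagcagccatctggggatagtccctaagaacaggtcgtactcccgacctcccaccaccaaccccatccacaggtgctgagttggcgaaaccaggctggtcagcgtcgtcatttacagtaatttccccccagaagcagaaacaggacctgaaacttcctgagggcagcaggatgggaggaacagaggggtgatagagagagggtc
C1qc: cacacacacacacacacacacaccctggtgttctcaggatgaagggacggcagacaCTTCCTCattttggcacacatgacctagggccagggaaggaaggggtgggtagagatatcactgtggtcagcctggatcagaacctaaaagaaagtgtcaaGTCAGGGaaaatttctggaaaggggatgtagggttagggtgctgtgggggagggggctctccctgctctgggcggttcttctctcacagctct
P2ry12: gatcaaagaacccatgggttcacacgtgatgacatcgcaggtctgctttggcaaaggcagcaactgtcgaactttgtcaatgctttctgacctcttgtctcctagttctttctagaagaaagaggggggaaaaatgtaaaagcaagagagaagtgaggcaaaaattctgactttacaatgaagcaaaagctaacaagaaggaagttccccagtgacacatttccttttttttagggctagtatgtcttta
P2ry13: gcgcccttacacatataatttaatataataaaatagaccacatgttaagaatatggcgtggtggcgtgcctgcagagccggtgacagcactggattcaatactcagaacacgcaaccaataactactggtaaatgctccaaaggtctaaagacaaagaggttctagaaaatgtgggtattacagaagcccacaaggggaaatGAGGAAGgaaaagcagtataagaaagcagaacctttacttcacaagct
Fcrls: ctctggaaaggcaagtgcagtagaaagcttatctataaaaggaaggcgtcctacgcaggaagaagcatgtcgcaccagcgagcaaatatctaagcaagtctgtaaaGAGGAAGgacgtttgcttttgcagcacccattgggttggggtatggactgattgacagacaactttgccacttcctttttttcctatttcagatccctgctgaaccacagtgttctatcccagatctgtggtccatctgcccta

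Such windows were found for 23 of the 31 members, 26 windows in all. GAGGAAG or its complement stood in 8 of the 26 windows, those of 7 genes (C1qc, Fcgr3, Fcrls, Itgam, Laptm5, P2ry13 and Trem2), and in 10.6% of all 32851 windows. The windows of Fcgr3 overlap and hold the same site, which was counted in each of them. The GTCA words stood in 4 of the 26, those of 4 genes (C1qc, Irf8, Mpeg1 and Trem2), and in 14.2% of all windows. C1qc was the only member that rose with both, with the complement of GAGGAAG starting 194 bases and GTCAGGG starting 93 bases before its start, and Trem2, which did not pass, also held both. Of the 6 called members with a window, C1qc and Fcrls held such a word, and C1qb, Fcer1g, Lyz2 and P2ry12 held none.

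Among the Fc receptor and ITAM genes, 1 of 4 rose and 3 did not pass, with a median difference of 0.025. Fcer1g encodes the gamma chain that carries the signal of several Fc receptors. It had 8.72, 8.68 and 8.80 in L26, against 8.42, 8.34 and 8.44 in wild type. The groups did not overlap, and the difference of 0.33 (SE 0.06, 1.26-fold) passed (adjusted p = 0.0123). The call was lost without L26 replicate 3 (adjusted p = 0.0557) and kept without any other array.

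Tyrobp, the gene of the ITAM adaptor DAP12, which serves Trem2 and other receptors, had 9.44, 9.35 and 9.42 in L26, against 9.2, 9.45 and 9.64 in wild type. The L26 values lay inside the range of the wild type values, which spread more widely (difference -0.03, 95% interval -0.25 to 0.20). Trem2, a lipid receptor gene, ranged from 8.17 to 8.24 in L26 and from 8.21 to 8.42 in wild type (difference -0.13, adjusted p = 0.301), and its other probe set had -0.05. Fcgr3, an immunoglobulin G receptor gene whose product pairs with that of Fcer1g, ranged from 8.43 to 8.57 in L26 and from 8.33 to 8.52 in wild type (difference 0.08, adjusted p = 0.585). Within each array Fcer1g was 0.36 higher in L26 relative to Tyrobp and 0.26 higher relative to Fcgr3, each without overlap (exact permutation p = 0.1, the smallest possible). Both pairs are among the 6 chosen after their values were seen. The groups nearly touched, with a lowest L26 and a highest wild type value of -0.72 and -0.78 for Tyrobp and 0.11 and 0.09 for Fcgr3.

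Of the 5 lysosomal and phagocytic genes, Lyz2 rose and the other 4 did not pass, with a median difference of -0.06. Lyz2, the lysozyme gene of myeloid cells, had 8.15, 8.16 and 8.34 in L26, against 7.83, 7.78 and 8.01 in wild type. The groups did not overlap (difference 0.34, SE 0.08, 1.27-fold, adjusted p = 0.0402). Its call was lost when any array but wild type replicate 3 was left out (adjusted p 0.0677 to 0.135), with differences from 0.28 to 0.41. Mpeg1, the gene of the pore-forming protein perforin-2, had 8.99, 8.95 and 9 in L26, against 8.70, 8.87 and 8.86 in wild type. It did not overlap either, but missed the threshold (difference 0.17, adjusted p = 0.156).

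Cd68, a lysosomal membrane glycoprotein gene often used to show phagocytic activity, had 8.13, 8.12 and 8.16 in L26, against 8.18, 8.36 and 8.34 in wild type. All L26 values were lower, and the difference of -0.16 did not pass (adjusted p = 0.19). Ctss, the cathepsin S gene, ranged from 11.36 to 11.62 in L26 and from 11.49 to 11.58 in wild type (difference -0.06, adjusted p = 0.703). Laptm5, a lysosomal transmembrane protein gene, had -0.10 on its chosen probe set, which is open to related transcripts, and from -0.01 to 0.16 on its other 4 (none passed).

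No gene among the remaining members passed. Of the complement receptors, C3ar1, the anaphylatoxin receptor gene, had -0.04 (adjusted p = 0.794), with 0.27 and 0.09 on its dimmer probe sets. Itgam, the alpha chain gene of the integrin that takes up complement-coated material, had 0.04, with values from 6.31 to 6.53 in L26 and from 6.14 to 6.59 in wild type. Cd14, a lipopolysaccharide co-receptor gene, had 7.64, 7.46 and 7.75 in L26, against 7.14, 7.27 and 7.44 in wild type. Its L26 values lay just above the wild type values, and the difference of 0.33 (SE 0.09) did not pass (adjusted p = 0.08). Ly86, whose protein MD-1 binds a relative of the Toll-like receptors, had 0.05 (adjusted p = 0.788).

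The leukocyte genes Aif1 (also called Iba1), Cd53 and Ptprc (Cd45) had differences of -0.15, -0.10 and 0.30, all with overlapping groups (adjusted p = 0.337, 0.513 and 0.201). The second Ptprc probe set had 0.003. The myeloid transcription factor genes Spi1, which encodes PU.1, and Irf8 had differences of -0.03 and 0.03. Their 95% intervals ran from -0.15 to 0.09 and from -0.12 to 0.17.

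Set side by side, the 10 homeostatic genes had a median difference of 0.04 and the 12 C1q, Fc and lysosomal genes one of 0.025. The array means of the homeostatic genes were 9.30, 9.25 and 9.2 in L26, against 9.16, 9.24 and 9.21 in wild type, and overlapped. Those of the C1q, Fc and lysosomal genes were 9.28, 9.21 and 9.27 in L26, against 9.07, 9.18 and 9.23 in wild type, and overlapped too. Of the second group 4 rose and 8 did not pass. The C1q genes taken alone had array means of 10.05, 9.99 and 10.11 in L26, against 9.73, 9.86 and 9.90 in wild type, which did not overlap. Among them C1qb and C1qc had passed, while C1qa had a difference of -0.03 with overlapping groups. Each group thus held genes that rose beside genes whose arrays overlapped. Genes with all L26 arrays below the wild type arrays were P2ry12, which passed, and Gpr34 in the first group, and Cd68 in the second. The order of the groups depended on the summary, since their array means differed by 0.045 for the homeostatic genes and 0.093 for the others.

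Over all probe sets annotated to the members, 46 in number, 8 passed when adjusted over 45037 probe sets, of which 3.92% passed in all. They were those of P2ry12, Selplg, Fcrls, C1qb, C1qc, Fcer1g and Lyz2, and 1 probe set of Csf1r that was not the brightest. For 22 members only 1 probe set was available, among them P2ry12, Selplg, Fcrls, C1qa, C1qc, Fcer1g, Tyrobp and Lyz2, so a disagreement between probe sets could not be looked for there.

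A further list held ligands of microglial receptors together with related receptors, ectoenzymes and transcription factors. Of its 17 measured genes 1 fell, 0 rose and 16 did not pass, where 5.19% of all genes passed in either direction. The gene that fell was Cd200, which encodes a neuronal surface protein that restrains myeloid cells through its receptor. It had 9.90, 10 and 9.76 in L26, against 10.77, 10.62 and 10.58 in wild type. The groups lay far apart (difference -0.77, SE 0.08, to 0.59 of the wild type level, adjusted p = 0.000985). Its receptor gene Cd200r1 had -0.06 (adjusted p = 0.694). The Csf1r ligand genes Csf1 and Il34 had differences of -0.07 and 0.02, and Cx3cl1, the fractalkine gene, had 0.03 (adjusted p = 0.734, 0.92 and 0.81).

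In other parts of the complement system, 2 of 23 measured genes rose, 0 fell and 21 did not pass, with a median difference of 0.10. Of all genes 5.19% passed in either direction, so 1 call among 17 to 19 genes lies near that share. Masp1, a protease gene of the lectin pathway, rose by 0.45 (SE 0.06, adjusted p = 0.00401) on 1 probe set, but its other probe sets ranged from -0.03 to 0.03. Cd93, a receptor gene of endothelial and myeloid cells once described as a C1q receptor, rose by 0.50 (SE 0.09, adjusted p = 0.0168), and its other probe sets had -0.01 to 0.27. Itgb2, the partner chain gene of Itgam, had 0.08 (adjusted p = 0.534). Among 19 further signature genes of microglia, Hpgd, which encodes a prostaglandin-degrading enzyme, fell by 0.52 (SE 0.06, adjusted p = 0.00297). The remaining 18 missed the threshold. The Hpgd probe set that fell was open to related transcripts, and the other, dimmer one had -0.02. Of 18 genes of Fc and ITAM signalling none passed, and Fcgr2b, the inhibitory Fc receptor gene, and the kinase gene Btk had 0.21 and 0.17 (adjusted p = 0.171 and 0.188).

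Of 24 genes linked to microglial activation 3 rose and 21 did not pass, where 5.19% of all genes passed in either direction. They were Lpl, the lipoprotein lipase gene, by 0.72 (SE 0.05, adjusted p = 0.000176), Cd52, a leukocyte surface glycoprotein gene, by 0.56 (SE 0.06, adjusted p = 0.0021), and the tetraspanin gene Cd9 by 0.35 (SE 0.07, adjusted p = 0.0266). Lpl and Cd9 are made by other brain cells too. The cytokine genes Il1b and Tnf had 0.04 and 0.03 (adjusted p = 0.725 and 0.843). In 18 general lysosomal genes Hexa, a hexosaminidase subunit gene, rose by 0.26 (SE 0.05, adjusted p = 0.0231). The remaining 17 missed the threshold, among them Ctsc, the cathepsin C gene, at 0.57 (SE 0.14, adjusted p = 0.0522), which was named after its value was seen.

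**Figure D3:**
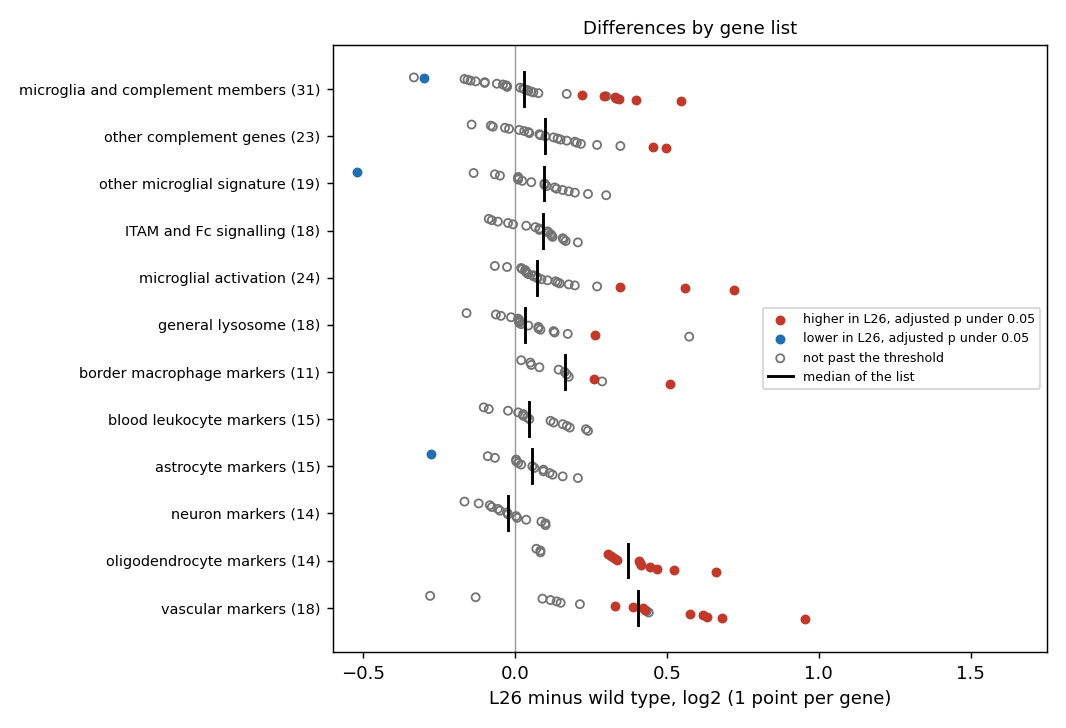
Differences between L26 and wild type on the log2 scale, 1 point per gene, for the 31 members and 11 other gene lists, with the number of measured genes in brackets. Filled points passed at an adjusted p under 0.05 and black bars are list medians. The median of the members lies at 0.03, against 0.37 for oligodendrocyte and 0.40 for vascular markers.

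Markers of other cell types moved on the same arrays, where 5.19% of all genes passed in either direction. Of 11 markers of the macrophages at vessels and meninges, Stab1 (0.26, adjusted p = 0.0325) and F13a1 (0.51, adjusted p = 0.0356) rose and 9 did not pass, although all 11 had a higher mean in L26. Their mean over the list was 6.35 to 6.50 on L26 arrays, against 6.26 to 6.30 on wild type arrays. The differences of the other 9 ran from 0.02 (Lyve1) to 0.29 (Ms4a7), with Mrc1 at 0.05, Pf4 at 0.16, Siglec1 at 0.17 and Cd163 at 0.18. Several of these markers were dim. In wild type F13a1, Ms4a7 and Cd163 averaged 5.92, 5.94 and 5.56, below the lower quartile of all values (5.95). Stab1, Pf4 and Siglec1 averaged 6.59, 7.10 and 7.07 there. Of 15 blood leukocyte markers none passed, and their mean was 6.50 to 6.58 in L26, against 6.45 to 6.49 in wild type. Of 18 vascular markers 9 rose, with list means of 8.66 to 8.73 in L26 against 8.32 to 8.40 in wild type, and of 14 oligodendrocyte markers 11 rose (11.37 to 11.61 against 11.11 to 11.19). Of 15 astrocyte markers 1 fell, and of 14 neuron and 5 red cell markers none passed. The globin genes Hba-a1, Hba-a2 and Hbb-b2 averaged 5.17, 5.76 and 6.10 in L26, against 5.20, 5.75 and 5.98 in wild type. These values lay near or below the lower quartile of all values (5.95), so they show little about blood content. Alas2, the brightest red cell marker, had a difference of 0.29 (adjusted p = 0.221, limma), and 3 of the 5 had a higher mean in L26. Of 12 markers of hippocampal fields 4 rose and 8 did not pass. The part of these cell types in the differences of the 31 genes was not tested.

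Genes around the 8 called members were called about as often as genes in general. Among the 5 measured genes on either side of each, leaving out other members, there were 67 different genes, of which 3 rose and 0 fell (4.48%, beside 5.19% of all genes). They were Pdgfrb next to Csf1r, Ssh1 near Selplg and Luzp1 near C1qb and C1qc. For P2ry12, Fcrls, Fcer1g and Lyz2, none of the 10 neighbours passed. Lyz1, the next measured gene to Lyz2, had a difference of 0.43 and missed the threshold (adjusted p = 0.0885, limma).

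The calls were recomputed under 15 alternatives, of which some could hardly end a call. A threshold of 0.1 keeps every gene under 0.05, and both choices of probe set leave the values of Fcrls, Selplg, Fcer1g, C1qc and Lyz2 as they are, since each has 1 probe set. Fcrls and Selplg passed under all 15, the 6 with an array left out included, and Fcer1g under all but 1. C1qb, C1qc and Lyz2 passed under 10 each, P2ry12 under 8 of the 14 that kept its probe set, and Csf1r under 6. In no alternative did 1 of these 8 genes change its direction.

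**Figure D4:**
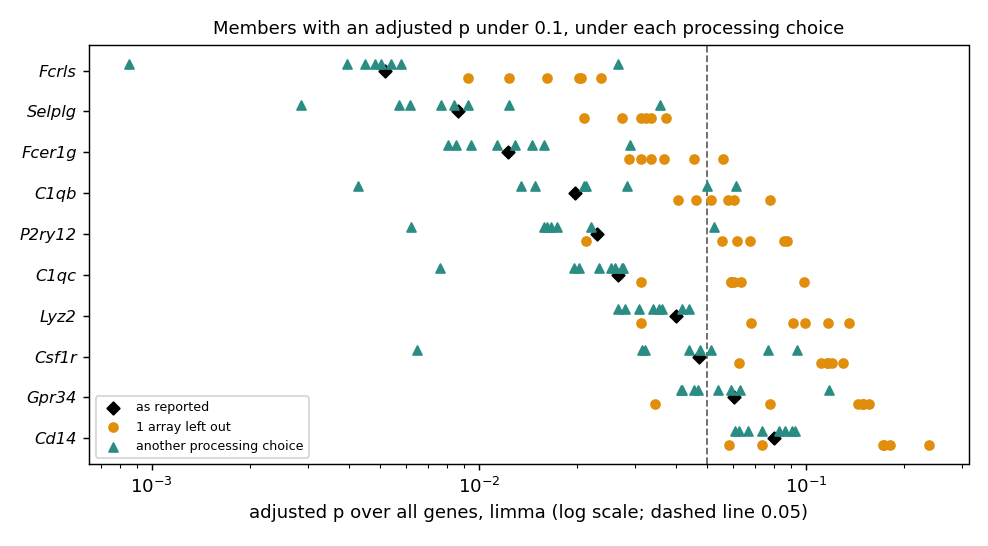
Adjusted p (limma, over all genes, log axis) of the 10 members under 0.1, as reported (diamonds), with 1 array left out (circles) and under another processing choice (triangles). The dashed line is 0.05. All points of Fcrls and Selplg lie left of it, while those of Csf1r with an array left out lie right of it.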

How the data were processed

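RNA from the hippocampus of 3 L26 and 3 wild type mice was hybridised to Affymetrix Mouse Genome 430 2.0 arrays. The values deposited are on a log2 scale and were made by the authors with RMA and the affy package per the submitters' processing notes (versions not given in the sources used here). Such values carry no detection calls and tend to shrink differences of dim transcripts. Arrays have no sequencing depth, so their number limits the precision.

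Of 45101 probe sets, 64 controls were left out and 45037 kept without a filter. GEO's platform annotation gave 34945 of them 1 symbol, 932 several and 9160 none. Only those with 1 symbol were named, and the brightest per gene gave 18193 genes. RefSeq tables (GRCm38.p6) gave gene order and promoters. The test was limma 3.58.1 (R 4.3.3), two-sided, with Benjamini-Hochberg adjustment over all genes and a threshold of 0.05. SEs and 95% intervals come from that fit, and lists are described by counts and medians. The code was tested on simulated data. The members and lists were chosen with earlier results of these data known. All 31 members are named, with Kcnip3 and, from each other list, the genes past the threshold (at most 6 by smallest p) or else the 1 or 2 with the smallest p. That rule was not followed for blood, vascular, glial, neuronal and field markers, which are given as lists. Of these, Prox1 and Wfs1 are named as markers of the labelled tissue. Other genes named (Ctsc, ligands, partners, cytokines and macrophage markers) were chosen after their values were seen.

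Alternatives were a replicate block, each array left out, repeated quantile normalization, centring on array medians, removal of the dimmest 40% of probe sets or of those open to related transcripts, a robust prior that follows intensity, weighted arrays, averaging a gene's probe sets, and a threshold of 0.1.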

Additional observations from a re-analysis of the deposited data

How the results depend on the processing

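With 1 array left out, 405 to 701 of all genes and 2 to 5 of the members passed, against 945 and 8 with all arrays, and 2 to 5 of the member probe sets passed, against 8. The fewest members, 2, passed without L26 replicate 3. The members' median difference ran from -0.0083 to 0.055 in these fits, and the median of the homeostatic genes minus that of the C1q, Fc and lysosomal genes from -0.040 to 0.028 (0.012 with all arrays). That last value was -0.075 without probe sets open to related transcripts, which left 29 members. The labels named no pairing, and with 3 arrays a group these values cannot decide whether replicate numbers pair the samples. Deviations of same-numbered arrays from their group means correlated at 0.029, -0.093 and 0.16. L26 replicates 1 and 3 correlated best with their own number, and L26 replicate 2 with wild type replicate 1 (0.18). With the replicate number as a block, 635 genes, 5 members and 5 member probe sets passed, and Csf1r, P2ry12 and C1qb did not (adjusted p = 0.0938, 0.0522 and 0.0612). At a threshold of 0.1, 1734 genes passed. Gpr34 and Cd14 passed in addition there. Of the 461 member values under alternatives, 405 kept their direction and their side of the threshold, 31 lost and 7 gained a call, and 18 changed sign. No called member changed sign, and the 10 members that did had adjusted p of 0.535 or more. With 1 array left out, their differences ran from -0.0017 to 0.053 for P2ry13, -0.093 to 0.022 for C3ar1, -0.067 to 0.16 for Itgam, -0.023 to 0.12 for Ly86, -0.0050 to 0.055 for Cx3cr1, -0.022 to 0.078 for Tmem119, -0.0083 to 0.087 for Irf8, -0.075 to 0.015 for C1qa and -0.14 to 0.078 for Tyrobp. Centred arrays gave -0.013 for P2ry13 and -0.0033 for Irf8. The mean of all probe sets gave -0.0067 for Cx3cr1, 0.017 for Laptm5 and 0.11 for C3ar1, and the removal of probe sets open to related transcripts gave 0.16 for Laptm5. The causes were not tested. No detection calls were used, and 3 arrays a group limit the precision.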
